A study of Mus musculus with 6 samples.

Results

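The 39 Hox genes of the A, B, C and D clusters were followed in mouse embryonic fibroblasts (MEFs) before and after treatment with TNFα, a cytokine that activates NF-κB. They are every symbol made of Hox, a cluster letter and a paralog number among the 20275 coding symbols of the deposited RNA table, with 11 genes in HoxA, 10 in HoxB, 9 in HoxC and 9 in HoxD. They have 41 coding rows, since Hoxa10 and Hoxb3 have 2 each, and for each symbol the row with the highest mean was kept. The cells were primary wildtype MEFs of a C57BL/6x 129 background taken from 13.5-day littermate embryos and passaged 4 times, and no group carried a deletion or transgene. RNA came from untreated cells and from cells given 20 ng/ml TNFα for 1.5, 6 or 24 hr. Each time is a single library, and H3K4me3 was measured once, in untreated cells against input. There were therefore no replicates, and every difference below is one between single libraries. No untreated RNA library was made at 1.5, 6 or 24 hr, so TNFα and time in culture cannot be told apart.

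Hox genes encode homeodomain transcription factors that give cells their position along the body axis and the limbs. They lie in clusters in which every gene is transcribed in the same direction, and genes with the same number in different clusters, called paralogs, descend from a single ancestral gene. Low paralog numbers are used anteriorly and early and high numbers posteriorly and late, and cultured fibroblasts keep a Hox pattern that reflects where in the body they came from. Polycomb complexes hold unused Hox genes silent, while trithorax complexes, which write methyl groups on lysine 4 of histone H3, hold used ones active. H3K4me3 marks the start sites of active genes.

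Sequence around the start sites is shown for 3 genes on which the results turn. The Hoxa13 promoter lies inside the longest H3K4me3 peak of the data, the Hoxd13 promoter is also rich in CpG but lies outside any peak, and Hoxb4 is the Hox gene with the largest difference after TNFα. Each run of 300 bases is the RefSeq promoter, from 250 bases before the start to 50 bases from it on, and was placed in mm9 by its exact match to the genome. It is written on the strand of the gene with each CpG in capitals.

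Hoxa13: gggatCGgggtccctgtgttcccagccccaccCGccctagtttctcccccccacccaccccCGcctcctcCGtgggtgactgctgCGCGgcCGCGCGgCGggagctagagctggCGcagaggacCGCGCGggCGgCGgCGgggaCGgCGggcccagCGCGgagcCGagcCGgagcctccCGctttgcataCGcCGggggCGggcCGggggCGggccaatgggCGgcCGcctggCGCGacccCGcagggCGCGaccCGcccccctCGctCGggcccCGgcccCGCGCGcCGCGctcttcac

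Hoxd13: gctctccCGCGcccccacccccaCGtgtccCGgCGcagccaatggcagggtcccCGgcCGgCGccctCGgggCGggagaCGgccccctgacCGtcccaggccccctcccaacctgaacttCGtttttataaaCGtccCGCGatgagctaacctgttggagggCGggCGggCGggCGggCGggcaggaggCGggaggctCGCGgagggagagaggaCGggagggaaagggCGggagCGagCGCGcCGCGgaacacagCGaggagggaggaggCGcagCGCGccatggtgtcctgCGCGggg

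Hoxb4: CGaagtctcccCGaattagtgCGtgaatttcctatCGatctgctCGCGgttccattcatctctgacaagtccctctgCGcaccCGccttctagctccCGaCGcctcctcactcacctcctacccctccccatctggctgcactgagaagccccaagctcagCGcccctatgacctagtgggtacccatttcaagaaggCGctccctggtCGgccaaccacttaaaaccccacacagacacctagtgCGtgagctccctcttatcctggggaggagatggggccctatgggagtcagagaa

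The Hoxa13 promoter (mm9 chr6:52210825-52211124, minus strand) held 45 CpG and had a GC content of 81%. The Hoxd13 promoter (chr2:74506032-74506331, plus strand) held 37 CpG and the letters TATAAA, and the nearest peak was 2727 bp from its start. The Hoxb4 promoter (chr11:96179331-96179630, plus strand) held 14 CpG, and the nearest peak was 21976 bp from this RefSeq start and 23559 bp from the GENCODE start used for the gene below. Over windows of the same length at the starts taken from GENCODE, the median was 16 CpG for the 39 Hox genes and 13 for 19720 coding genes. Coding genes with a peak had a median of 22 CpG and those without 4, whereas Hox genes with a peak had 19 and those without 16, so Hox promoters that carried no peak held more CpG than other promoters that carried none. Both strands of each window were searched for 3 motifs. The κB consensus of NF-κB was found in 2 Hox windows (5.13%, Hoxa11 and Hoxd11) and in 4.74% of all coding windows. The Pbx-Hox motif TGATTNAT was found in 1 (2.56%, Hoxb9), against 2.79%, and TATAAA in 4 (10.3%), against 13.1%.

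The clusters also hold microRNA genes, small RNAs that pair with messages through their seed (bases 2 to 8, in capitals). The mature sequences from RefSeq are shown because they fall into 2 families by seed, miR-10 and miR-196, with members in different clusters.

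mmu-miR-10a-5p: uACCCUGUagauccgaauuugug

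mmu-miR-10b-5p: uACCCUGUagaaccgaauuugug

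mmu-miR-196a-5p: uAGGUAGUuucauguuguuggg

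mmu-miR-196b-5p: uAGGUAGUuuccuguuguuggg

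Levels are given as deposited RPKM, a read density corrected for transcript length and library size, on a scale of its own, so a value of 100 is an arbitrary cutoff and not 100 RPKM in the usual sense. Each library has 2 columns, R1 and R2, whose meaning is not stated, and their mean is the level of the library. They correlated across coding genes with r of 0.991 to 0.994 on the log2(value + 1) scale, and were not used as replicates. The number of reads behind each value is unknown. The libraries differed as a whole. Summed over coding genes, the 1.5, 6 and 24 hr libraries came to 1.2, 0.542 and 0.969 of the untreated one, and over the 6050 coding genes with a mean level of at least 100 the median log2 ratio to untreated cells was 0.44, -0.74 and 0.10. The 1.5 and 24 hr libraries were the closest pair, with a median absolute log2 difference of 0.21 after centring over coding genes with a mean of at least 10, against 0.42 to 0.70 for the other pairs. Targets of NF-κB marked every treated library: all 6 genes listed for this check were at least 2-fold higher at each time, with Nfkbia, the inhibitor of NF-κB, at 319 in untreated cells and at 7211, 2655 and 5772 after 1.5, 6 and 24 hr. Of 11 fibroblast markers 10 had a mean of at least 100, and their levels summed to 45204 to 99819 in a library. The sums of the other marker lists ranged from 3.33 to 5.02 for epithelial genes (Epcam at 0 throughout), 0.756 to 5.04 for endothelial, 226 to 930 for haematopoietic (Cd3e at 0), 70.9 to 305 for neural (Neurod1 at 0), 165 to 319 for muscle (Myod1 at 0) and 5 to 96 for pluripotency genes. Within these lists Cd68 was at 605, 823, 202 and 312 in the 0, 1.5, 6 and 24 hr libraries, Emr1 reached 74, Tubb3 was at 93.3 in untreated cells and reached 236, Gfap was at 94.2 and Des at 317 in untreated cells. The part of such cells in the Hox values was not tested. In RNA from a whole culture, fewer cells that use a Hox gene and less of its RNA per cell cannot be told apart.

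In untreated MEFs, Hox genes of all 4 clusters were detected, and the HoxB and HoxC genes of the middle of the clusters were the most abundant. Of the 39 genes, 11 had a level of at least 100 (28.2%, against 28.3% of all coding genes), 22 lay between 10 and 100 and 6 were under 10. The median was 63.3, against 21.4 for all coding genes. The highest were Hoxb9 at 304, Hoxc6 at 274, Hoxc8 at 233, Hoxb6 at 221 and Hoxb4 at 203. Hoxc6, Hoxc8 and Hoxb9 act in the thoracic part of the axis. The next were Hoxc9 at 180, Hoxb5 at 168, Hoxd13 at 119, Hoxc4 at 116, Hoxb8 at 110 and Hoxb3 at 109. Over Hox genes with a mean of at least 10, the R1 and R2 columns of this library differed by up to 0.28 on the log2 scale. Genes closer than that cannot be put in an order. This holds for Hoxb9 and Hoxc6, for Hoxc6 and Hoxc8, for Hoxc8, Hoxb6 and Hoxb4, and for Hoxb4, Hoxc9 and Hoxb5. It also holds for Hoxd13, Hoxc4, Hoxb8 and Hoxb3. Hoxd13, which shapes the digits, was the only gene of groups 10 to 13 among these 11. The level summed to 493 over HoxA, 1189 over HoxB, 942 over HoxC and 562 over HoxD.

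The lowest levels were at the ends of the clusters. Hoxb1, which acts in the hindbrain, was at 0.228 and Hoxd1 at 1.02. At the other end, Hoxb13, known from the prostate, was at 1.45, Hoxc12 at 1.69 and Hoxc13, known from hair and nails, at 0.782. Hoxc11 was at 10.6. HoxA and HoxD thus differed from HoxB and HoxC at their posterior ends: the HoxA genes of groups 10 to 13 lay between 28.7 and 50.3 and those of HoxD between 64.1 and 119, while HoxC had Hoxc10 at 56.4 followed by 3 genes at 10.6 or less. Posterior HoxA and HoxD genes build the limbs, and the labels do not say which parts of the embryo gave the fibroblasts.

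**Figure D1:**
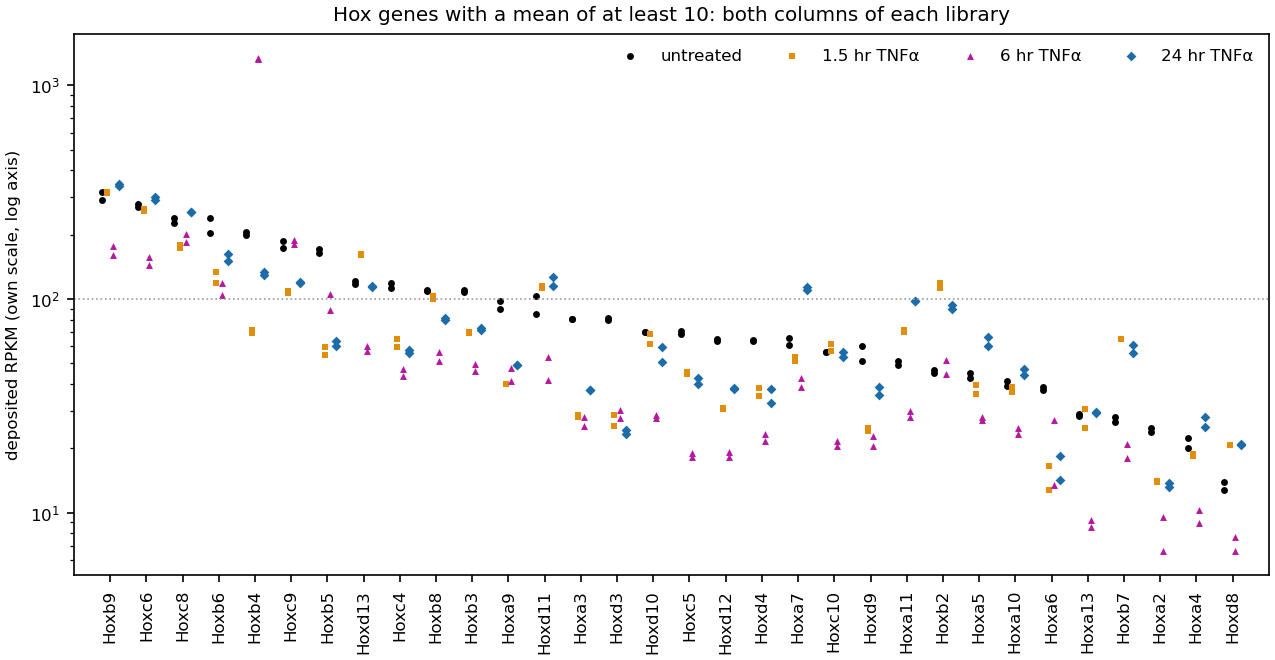
Deposited RPKM (log axis) of the 32 Hox genes with a mean level of at least 10, ordered by their untreated level; each library is shown by its 2 columns, as black circles (untreated), orange squares (1.5 hr), magenta triangles (6 hr) and blue diamonds (24 hr), and the dotted line is at 100. Hoxb4 at 6 hr stands alone above 1000, while most other 6 hr values lie below the untreated ones.

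H3K4me3 was distributed unevenly over the clusters, and its order among them was not that of the RNA. The deposited list has 11157 peaks, of which 18 overlap the clusters, taken from the first to the last base of their genes in mm9. The lowest enrichment in the list was 20-fold, so weaker H3K4me3 may be present where no peak is listed. HoxA (chr6:52105366-52210874) had 6 peaks that covered 52.8% of its 106 kb. HoxD (chr2:74506367-74603200) had 3 over 24% of 96.8 kb, HoxC (chr15:102751534-102867274) had 5 over 20.9% of 116 kb, and HoxB (chr11:96055630-96229570) had 4 over 10.1% of 174 kb. Of the genome, 1.49% was covered. HoxA held 62% of the tags and 46.1% of the covered bases of the 4 clusters but 15.5% of their summed untreated RNA level, and its median level per gene, 40.4, was the lowest, against 109 in HoxB, 69.7 in HoxC and 64.1 in HoxD.

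The 2 longest peaks of the whole data lay side by side in HoxA. One of 25026 bp (chr6:52192032-52217057) held the starts of Hoxa11, which acts in the forearm and kidney, and Hoxa13, which acts in the hand and foot. One of 22.2 kb (chr6:52169701-52191866), 165 bp from it, held those of Hoxa9 and Hoxa10. They held 4972 and 5856 tags, ranks 13 and 5 of all peaks, at 37.2-fold and 50.9-fold enrichment over background as MACS gave it. Only 1 other peak of the data exceeded 20 kb. The 16.8 kb peak over Hoxd10 and Hoxd11 (chr2:74515882-74532633) was number 8 by length and held 2235 tags at 22.5-fold enrichment. The paralogs Hoxa10 and Hoxd10, and Hoxa11 and Hoxd11, thus all lay under long peaks, whereas Hoxa13 did and Hoxd13 did not.

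The cluster peaks were long and thin. Their median length was 3.98 kb against 3.19 kb for all peaks, and 15 of 18 were longer than that. All 18 had fewer tags per base than the median peak, with a median of 0.146 against 0.32. In HoxA the values ran from 0.18 to 0.276, and in the other clusters from 0.0953 to 0.188. Enrichment was under the overall median of 45.5-fold in 14 of 18, with a median of 28.9-fold.

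**Figure D2:**
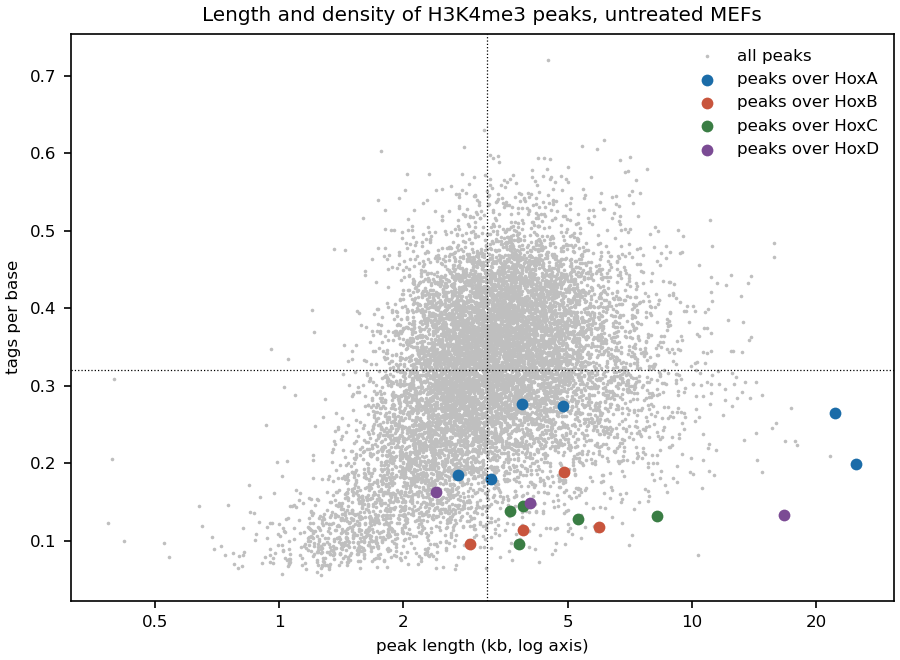
Length (kb, log axis) and tags per base of all 11157 H3K4me3 peaks in grey and of the 18 peaks over the Hox clusters in colour, with dotted lines at the medians of all peaks, 3.19 kb and 0.32 tags per base. Every Hox peak lies below the horizontal line, and the 2 HoxA peaks at the far right are the longest in the data.

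A peak lay within 1 kb of the start of 18 of 39 Hox genes (46.2%), and of 51.1% of 19724 coding genes with an annotated start. Among genes with an untreated level of at least 10, it was 17 of 33 Hox genes (51.5%) against 79.8% of coding genes. The 21 without a peak included genes with high levels. They were Hoxb6 at 221, Hoxb4 at 203, Hoxc9 at 180, Hoxb5 at 168, Hoxd13 at 119 and Hoxb8 at 110, 6 of the 11 genes of at least 100. In HoxB, the stretch from Hoxb8 to Hoxb4 held no listed peak although 4 of its 5 genes were above 100, Hoxb7 at 27.2 being the exception. The HoxB peaks that were listed had enrichments of 20.2-fold to 28.7-fold, near the lowest value of the list. Weaker H3K4me3 in the stretch would not show. The median level was 66.5 for Hox genes with a peak and 56.4 for those without.

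Where the marked part of a cluster ended differed from cluster to cluster. In HoxA, peaks ran from beyond Hoxa13 to Hoxa7, then a peak of 3.87 kb followed with no start in it, and Hoxa6 (38.1), Hoxa5 (43.9), Hoxa3 (80.7) and Hoxa2 (24.3) had none, with Hoxa4 (21.1) marked between them. In HoxD, Hoxd11 (93.7), Hoxd10 (70.2), Hoxd9 (55.9) and Hoxd8 (13.3) were marked, and Hoxd12 (64.1), Hoxd13, Hoxd4 (63.8), Hoxd3 (80.5) and Hoxd1 on either side were not. In HoxC, the marked genes were Hoxc8, Hoxc6, Hoxc5 (69.7) and Hoxc4, and those from Hoxc9 to Hoxc13 were unmarked. In HoxB they were Hoxb9, Hoxb3 and Hoxb2 (45.7).

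Of the 18 peaks, 4 had no Hox start within 1 kb, and 1 of them covered much of the Hoxc9 gene (chr15:102810002-102815299), downstream of the start used. Starts are a limit here: of 22 Hox genes with a RefSeq promoter, 17 had it within 1 kb of the start used and 5 did not, which were Hoxa3 (40418 bp away), Hoxd3 (27626 bp), Hoxd4 (5096 bp), Hoxb4 (1583 bp) and Hoxa7 (1068 bp). With any annotated start of a gene allowed, 19 genes had a peak. With only peaks of at least 40-fold enrichment, 7 did. Within 5 kb of the start used, 23 genes had a peak of any enrichment, among them Hoxc9 (2539 bp away) and Hoxd13 (2812 bp).

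**Figure D3:**
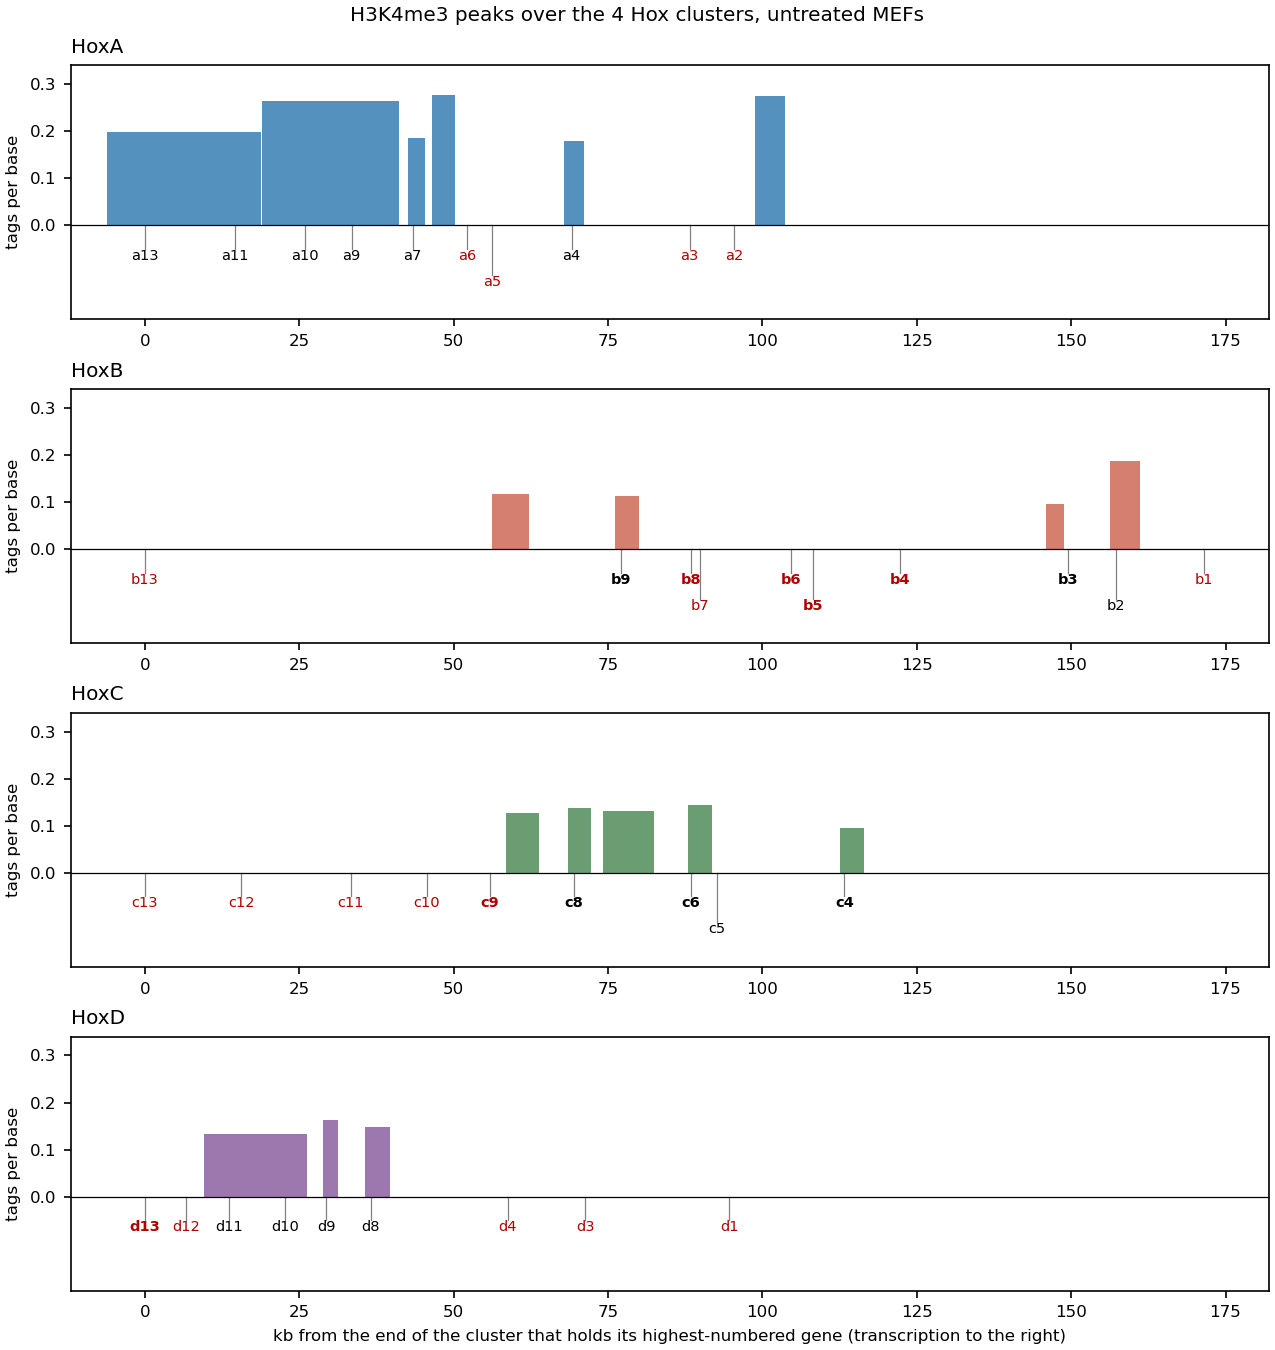
H3K4me3 peaks (bars as wide as the peak, height in tags per base) over the 4 clusters, drawn in kb from the end with the highest-numbered gene so that transcription runs to the right; gene numbers stand at the starts of the genes described, in black with a peak within 1 kb and in red without, and in bold where the untreated level was at least 100. HoxA is covered over most of its left part, from Hoxa13 to Hoxa7, while the bold red genes of HoxB have no peak.

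The comparison with TNFα asks how the levels of this positional programme differed from untreated cells at each time of treatment. By the study's kind of criterion, at least a 2-fold difference and a minimum mean level, here 100, 7 Hox genes could be judged: Hoxb4, Hoxb6, Hoxb9, Hoxc6, Hoxc8, Hoxc9 and Hoxd13. At 1.5 hr none was higher (29.8% of 6050 coding genes were) and 1 was lower, Hoxb4 (7.97% of coding genes). At 6 hr 1 was higher, again Hoxb4 (1.83%), and 1 lower, Hoxd13 (31.5%). At 24 hr none was higher (16.8%) or lower (12.8%). Their median log2 ratios were -0.40, -0.85 and -0.06, against 0.44, -0.74 and 0.10 for coding genes.

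Hoxb4, known for expanding blood stem cells when it is overexpressed, was the exception among the Hox genes. Its level was 203 in untreated cells and 70.4, 1330 and 132 after 1.5, 6 and 24 hr. The 2 columns were close in each library, with 1324 and 1337 at 6 hr. The log2 ratio to the untreated library was -1.53, 2.72 and -0.62, and the 6 hr value ranked 20 of 6050 coding genes. It was the highest Hox level in any library, in the library with the lowest summed level. Its neighbours did not share it: at 6 hr Hoxb3 was at 47.9 (109 untreated), Hoxb5 at 96.9 (168 untreated) and the Mir10a row at 4.74 (4.27 untreated). Its paralogs Hoxa4, Hoxc4 and Hoxd4 were at 9.6, 45.4 and 22.5 at 6 hr, against 21.1, 116 and 63.8 in untreated cells. The GC content of its transcript was 51.5%, close to the coding median of 51.3%.

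The other 6 genes stayed nearer to their untreated level. Hoxb9 was at 304, 316, 169 and 341 in the 0, 1.5, 6 and 24 hr libraries, Hoxc6 at 274, 261, 151 and 295, and Hoxc8 at 233, 176, 193 and 255. All 3 were highest at 24 hr as deposited. Relative to the coding median, their log2 ratios at 24 hr were only 0.06, 0.01 and 0.03. Hoxb6 was at 221, 126, 112 and 156, and Hoxc9 at 180, 108, 184 and 119, lower at 1.5 and 24 hr than at 0 and 6 hr. Hoxd13 was at 119, 162, 58.8 and 114. Its 2.02-fold lower level at 6 hr was within the shift of that library, since relative to the coding median its log2 ratio was -0.28.

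Because the libraries were shifted as a whole, each log2 ratio was also taken relative to the coding median, over the 32 Hox genes with a mean level of at least 10. Most Hox genes then stood below the median at 1.5 hr. At that time 27 of 32 were below it, with a median of -0.78. Of 11639 coding genes of at least 10, 52.4% were above it, with a median of 0.06. No Hox gene was at least 2-fold higher (16.5% of coding genes were) and 15 were at least 2-fold lower (46.9%, against 17.2% of coding genes). The 15 were Hoxa2, Hoxa3, Hoxa6, Hoxa9, Hoxb3, Hoxb4, Hoxb5, Hoxb6, Hoxc4, Hoxc5, Hoxc9, Hoxd3, Hoxd4, Hoxd9 and Hoxd12. At 6 hr Hoxb4 was higher (7.98% of coding genes) and Hoxc5 and Hoxd12 were lower (5.74%), with a median of -0.26. At 24 hr none was higher (14.3%) and 6 were lower (18.8%, against 15.7% of coding genes), Hoxa3, Hoxa6, Hoxa9, Hoxb5, Hoxc4 and Hoxd3, with a median of -0.50. The 7 Hox genes under 10 were not judged. Of these, Hoxb1, Hoxc12 and Hoxd1 were listed at 0 in at least 1 library, and Hoxc11 was at 10.6, 7.9, 1.76 and 1.74.

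The ratio of a gene moved with its GC content over all coding genes, and this bears on the Hox counts. Across 11413 coding genes, r between the centred log2 ratio and the GC content of the transcript was -0.54, -0.33 and -0.51 at the 3 times. Across the 32 Hox genes, whose GC content ran from 46.8% to 67.8% with a median of 53.8%, it was -0.10, -0.25 and -0.11. With ratios centred within 20 bins of GC content, chosen after seeing this, 1 Hox gene was higher at 1.5 hr (Hoxb7, 10.8% of coding genes) and 10 were lower (11.9%), with a median of -0.56. At 6 hr 1 was higher (Hoxb4, 5.72%) and 1 lower (Hoxc5, 5.01%), with a median of -0.09. At 24 hr 3 were higher (Hoxa11, Hoxb7 and Hoxd11, 10.6%) and 5 lower (10.5%), with a median of -0.08. In this setting 23 of 32 Hox genes were below their bin's median at 1.5 hr, 20 at 6 hr and 16 at 24 hr. Whether GC content had a part in these differences was not tested.

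**Figure D4:**
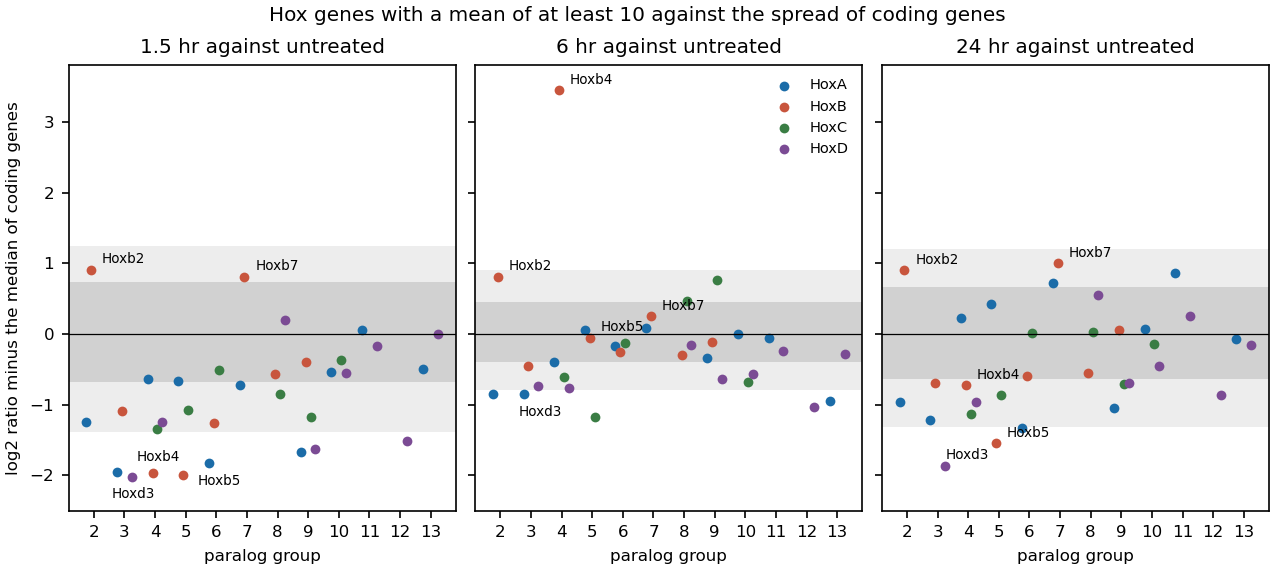
Log2 ratio to the untreated library minus the coding median (y axis) by paralog group (x axis) for the 32 Hox genes with a mean of at least 10, coloured by cluster; grey bands span the middle 50% (dark) and 80% (light) of coding genes. At 1.5 hr groups 3 to 6 lie mostly under the dark band, and at 6 hr Hoxb4 stands apart at 3.45.

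The share of lower genes differed between paralog groups. Of the anterior groups 1 to 4, 9 of 12 genes had a mean of at least 10, and their median relative to the coding median was -1.25, -0.61 and -0.96 at 1.5, 6 and 24 hr, with 7 of 9 at least 2-fold lower at 1.5 hr. For the 15 genes of the middle groups 5 to 9 it was -0.85, -0.12 and -0.55, with 7 lower at 1.5 hr. For 8 of 12 genes of the posterior groups 10 to 13 it was -0.43, -0.42 and -0.10, with 1 lower at 1.5 hr. Centred within GC bins, the medians at 1.5 hr were -0.79, -0.78 and -0.45, with 4, 5 and 1 genes lower, so the anterior and middle medians differed by less there. The difference between these classes was not tested.

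Group 3 was below the untreated level in all 3 of its clusters. Hoxa3, which is needed for thymus and parathyroid, was at 80.7, 28.4, 26.8 and 37.3 in the 0, 1.5, 6 and 24 hr libraries, and Hoxd3 at 80.5, 27, 28.8 and 23.8. Hoxb3 was at 109, 69.4, 47.9 and 72.4. The summed level of the group at 24 hr was 0.494 times the untreated one, and every treated library was below the untreated library for each of the 3 genes. Centred within GC bins, Hoxb3 was at 0.07 and 0.36 and Hoxa3 at -0.79 and -0.16 on the log2 scale at 1.5 and 24 hr, so Hoxd3, at -1.33 and -1.24, was alone in staying 2-fold lower. Hoxb5 was at 168, 57.3, 96.9 and 62, and Hoxc4 at 116, 62.2, 45.4 and 56.8. Hoxa9, a gene of blood progenitors and leukaemia, was at 93.8, 39.9, 44.3 and 49.1. Hoxa6 was at 38.1, 14.7, 20.4 and 16.2, but its 2 columns at 6 hr, 27.2 and 13.5, differed 2-fold.

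A few genes went the other way. Hoxb2, a hindbrain gene, was at 45.7, 116, 48 and 91.5, and Hoxb7 at 27.2, 64.9, 19.4 and 58.3, so both were more than 2-fold higher as deposited at 1.5 hr and at least 2-fold at 24 hr, but under 2-fold above the coding median. Hoxa7 was at 63.3, 52.2, 40.5 and 112, and Hoxa11 at 50.3, 70.8, 29 and 98.2. As deposited, the summed level of group 7 was 1.88 times the untreated one at 24 hr and that of group 11 was 1.43 times. Hoxc11 of group 11 went against its sum, from 10.6 in untreated cells to 1.74 at 24 hr. The annotated spans of Hoxb7 and Hoxb8 overlap, and Hoxb8, at 110, 101, 53.9 and 80.6, did not follow Hoxb7. Reads in the shared stretch cannot be assigned to either with certainty.

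The remaining genes of at least 10 were Hoxa2, Hoxa4, Hoxa5, Hoxa10, Hoxa13, Hoxc5, Hoxc10, Hoxd4, Hoxd8, Hoxd9, Hoxd10, Hoxd11 and Hoxd12. At 24 hr their log2 ratios as deposited ran from -0.86 (Hoxa2 and Hoxd4) to 0.65 (Hoxd8). Hoxa5, which acts in lung and airway, was at 43.9, 37.6, 27.5 and 63, and Hoxd11 at 93.7, 113, 47.7 and 121. Hoxd12 was at 64.1, 30.6, 18.8 and 38, which set it apart from its neighbours Hoxd11 and Hoxd13 at 1.5 hr.

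At 24 hr most Hox genes stood higher than at 1.5 hr. The 2 libraries are the closest pair, and of 11639 coding genes 1.54% were higher by 2-fold or more at 24 than at 1.5 hr relative to the median, and 1.91% were lower. Of the 32 Hox genes 3 were higher, Hoxa7 (relative log2 ratio 1.43), Hoxb4 (1.23) and Hoxa5 (1.08), and none was lower. In all, 29 of 32 were above the median in the mean and 29 in both columns, against 48.1% of coding genes in the mean, and the median was 0.44 against -0.02. The exceptions were Hoxb2, Hoxb8 and Hoxd13, the lowest at -0.17. As deposited, 21 of 32 were higher at 24 hr, with the median log2 ratio of coding genes at -0.33. Hoxa9, for example, was at 39.9 and 49.1, and Hoxd9 at 24.5 and 37.1.

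**Figure D5:**
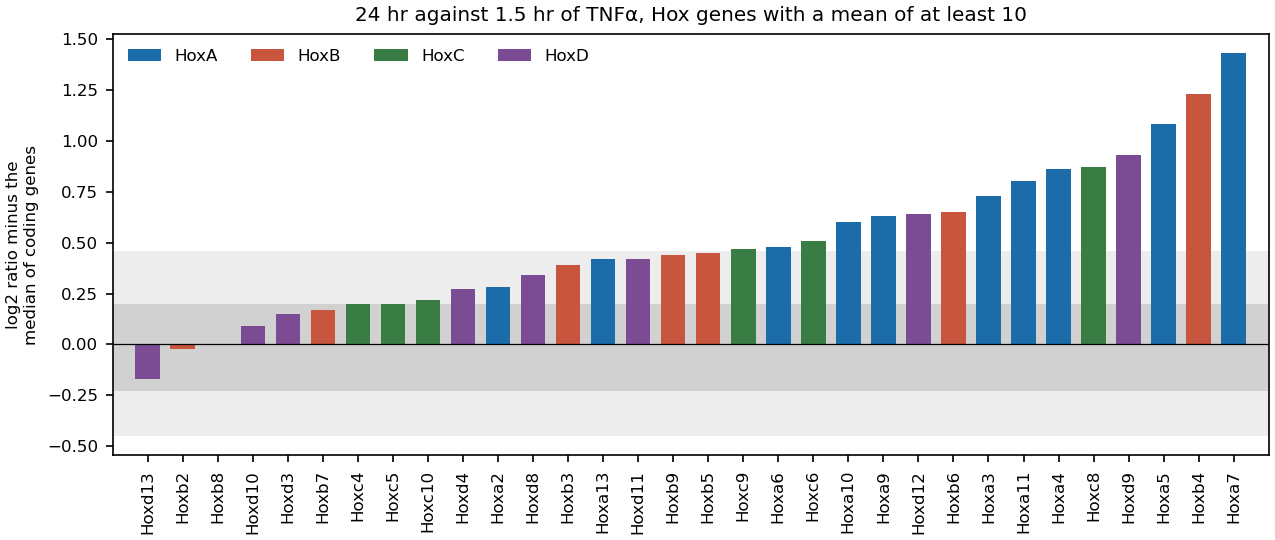
Log2 ratio of the 24 hr to the 1.5 hr library minus the coding median (y axis) for the 32 Hox genes with a mean of at least 10, ordered by value and coloured by cluster; grey bands span the middle 50% (dark) and 80% (light) of coding genes. Bars point up for 29 genes and reach 1.43 for Hoxa7.

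Most noncoding transcripts of the clusters were at low levels, and the 2 columns of many differed. Of 9 noncoding rows inside the clusters, Hoxa11as, the antisense transcript of Hoxa11, was the highest, at 144, 102, 37.8 and 109 in the 0, 1.5, 6 and 24 hr libraries, while Hoxa11 was higher at 24 hr than in untreated cells. Whether the values were counted by strand is not stated, so reads of this pair cannot be told apart with certainty. 2700086A05Rik in HoxA was at 16.6, 2.16, 13.9 and 3.33, and 1700109F18Rik in HoxD at 25.1, 8.31, 8.54 and 7.53. Rows of the 2 seed families shown above differed in level: Mir196a-1 in HoxB was at 80.3, 39.5, 20.2 and 23.1, while Mir10a in HoxB was at 4.27, 0, 4.74 and 0, with 6 of 8 columns at 0. Mir196b in HoxA was at 32.7 in untreated cells, but its columns there were 6.25 and 59.1. Mir196a-2, Mir10b and Mir615 had 5, 4 and 2 columns at 0. Libraries of poly(A) RNA do not measure mature microRNAs, so these rows stand for precursor or overlapping transcripts.

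Partners and regulators of Hox genes were read by the same criterion, a mean of at least 100 and a 2-fold difference as deposited, beside the coding shares given above. Each library's shift bears on these counts, so those relative to the coding median follow them. The coding shares relative to the median given above are over genes of at least 10. Counts relative to the median in the lists, over genes of at least 100, therefore have no matching share beside them. Ratios also moved with GC content over all coding genes, as given above. The lists were not centred within GC bins, so a part of GC content in their differences was not tested. Among the TALE cofactors, which bind DNA together with Hox proteins, Pbx2 and Meis3 passed 2-fold at no time. Of 11 genes of Polycomb complex PRC2, which writes the silencing mark on lysine 27 of histone H3, 5 could be judged, and 4 were higher and 1 lower at 1.5 hr. Rbbp7, a histone-binding subunit, was at 144, 552, 152 and 361, and Phf1, an accessory subunit, at 307, 136, 254 and 144. None passed 2-fold at 6 hr, and 1 was higher and 1 lower at 24 hr. Relative to the coding median, 1 was higher and 1 lower at 1.5 hr, and the other times gave the same counts. Of 16 genes of PRC1, 7 could be judged, with 2 higher at 1.5 hr, 2 lower at 6 hr and 1 lower at 24 hr. Among the higher was Pcgf3, at 85.9, 194, 57.8 and 143. Relative to the coding median the direction turned, with 0 higher and 2 lower at 1.5 hr, none at 6 hr and 1 lower at 24 hr.

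The trithorax list held the largest differences among these regulators. Of 15 such genes, 11 could be judged, with 2 higher and 4 lower at 1.5 hr, none at 6 hr, and 1 higher and 4 lower at 24 hr. Relative to the coding median, 1 was higher and 5 were lower at both 1.5 and 24 hr and none passed 2-fold at 6 hr. As deposited, the lower ones were 3 methyltransferases of H3 lysine 4 and a demethylase of lysine 27. Mll2 was at 1207, 169, 1180 and 155 in the 4 libraries. Wbp7 was at 630, 169, 561 and 155, Setd1a at 599, 234, 580 and 273, and the demethylase Kdm6b at 955, 291, 748 and 230. All 4 were high at 0 and 6 hr and low at 1.5 and 24 hr, as Pitx1, a hindlimb gene, was, at 349, 90.4, 562 and 88.4. Of the 32 Hox genes with a mean of at least 10, 5 had this order, with both the 0 and 6 hr levels above both the 1.5 and 24 hr levels (9.35% of 11641 coding genes did): Hoxa6, Hoxb4, Hoxb5, Hoxc9 and Hoxd3, or 15.6%. In both columns it held for 3 of them, Hoxb4, Hoxb5 and Hoxc9. The opposite order was found for 6 (18.8%), Hoxa11, Hoxb2, Hoxb7, Hoxb9, Hoxd8 and Hoxd11, and for 53.8% of coding genes. Both orders were read from levels as deposited, so each library's shift bears on these shares. In the other direction, Dpy30, a subunit shared by the H3 lysine 4 methyltransferases, was at 126, 367, 119 and 315.

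Retinoic acid induces anterior Hox genes in the embryo. Of 18 genes of its pathway 8 could be judged. At 1.5 hr 1 was higher and 2 lower, at 6 hr 7 were lower and at 24 hr 3 were lower. Relative to the coding median, none was higher and 4, 3 and 4 were lower. Dhrs3, which reduces retinaldehyde, was at 594, 217, 105 and 91.9, and the receptor Rara at 487, 279, 143 and 184. Crabp2, which carries retinoic acid to its receptor, was at 1044, 2493, 390 and 808. Of 4 upstream regulators, Gdf11 alone could be judged and passed 2-fold at no time, while Cdx2 and Cdx4 were listed at 0 in every library. Of 10 genes flanking the clusters, 4 could be judged. Hibadh near HoxA was at 43.4, 192, 56.5 and 135, and Mtx2 near HoxD at 44.6, 223, 84 and 148. Both were higher at 1.5 and 24 hr, and Skap2 was 2-fold lower at 6 hr. Relative to the coding median, 2 of the 4 were higher at each time and 1 was lower at 24 hr. Of 10 limb transcription factors 4 could be judged, and Pitx1 was the only one past 2-fold, lower at 1.5 and 24 hr. Relative to the coding median, 3 were lower at 1.5 hr, 1 was higher at 6 hr and 1 lower at 24 hr.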

How the data were processed

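RNA-seq was done on untreated MEFs and after 3 times of TNFα, and H3K4me3 ChIP-seq on untreated MEFs. The authors mapped paired-end directional reads to mm9 with TopHat and made the deposited RPKM values of RefSeq transcripts with an in-house script, 2 columns per library. Columns were tied to times through the study's own list of libraries. The extract field of the 24 hr sample describes ChIP, whereas its title, its treatment and its library source are those of an RNA sample, and it was used as RNA. For ChIP, the authors used Bowtie for mapping and MACS for peaks against input, and the deposited list gives a count of tags, a fold enrichment, a score from the logarithm of the p-value and of tags per base, and an FDR in percent.

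For each symbol, the NM_ row with the highest mean of the 8 columns was used and the columns were averaged. Log2 ratios to the untreated library had no pseudocount, and genes with a mean of at least 100 were judged by a 2-fold difference. With 1 library per time no test or interval was possible. Values in every library were given for Hox genes with a mean of at least 100, for those that stood out in a comparison, chosen after their values were seen, and otherwise as ranges. From the lists of other genes, some of those past 2-fold in both columns were named, and not always those with the largest ratios. Cd68, Emr1, Tubb3, Gfap, Des, Skap2, Pbx2, Meis3, Gdf11, Cdx2 and Cdx4 were further picks, made with their values in view. The members and the lists were chosen with earlier results of these data known. Setd1b and Prac1 had no matching row. Some results are not reported here.

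Starts and spans came from GENCODE vM1 on NCBIM37, the assembly of mm9, from the coding transcript with the longest coding sequence, found for 97.3% of coding symbols and all 39 Hox genes. GC content is that of the same transcript, known for 98% of coding genes with a mean of at least 10. MicroRNA and promoter sequences came from RefSeq on GRCm38.p6. Of 39 Hox genes 22 had a promoter there, and all 22 were found in mm9. The steps were tested on simulated data. Alternatives were centring on the coding median, scaling to the sum, each column alone, a pseudocount of 10, other filters, folds, windows and starts and, added after seeing the data, centring on the median or within GC bins over genes of at least 10. Python 3.11.15, pandas 2.3.3, numpy 2.4.6, pysam 0.24.0 and matplotlib 3.10.9 were used.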

Additional observations from a re-analysis of the deposited data

Results flagged for a closer look

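Hoxb4 moved in opposite directions at 2 times of the same treatment. Its level was lower than in untreated cells in both columns at 1.5 hr, with a log2 ratio of -1.53, and higher in both at 6 hr, with a log2 ratio of 2.72. The difference between the 2 ratios was 4.24. With 1 library per time the difference was not tested, and both ratios share the untreated library.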

How the results depend on the processing

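No paired analysis was possible because the labels give no replicate numbers and each time has 1 library. A ratio counts as moved where the shift exceeds the difference between the columns, and a count or a covered share beyond 1.5 times. At 1.5 hr, the 0 Hox genes at least 2-fold higher became 2 with a level of at least 10 and 2 with no filter, and 1 with ratios centred within GC bins. The 1 lower became 3 when centred on the median, 3 when scaled to the sum, 2 with R1 alone, 8 with a level of at least 10, 10 with no filter, 3 at 1.5-fold, 0 at 3-fold, 15 centred with a level of at least 10 and 10 within GC bins. The median of -0.40 became -0.85 when centred, -0.67 when scaled to the sum and -0.78 when centred with a level of at least 10. At 6 hr, the 1 higher became 2 with no filter. The 1 lower became 0 when centred, scaled to the sum, with a pseudocount of 10 or at 3-fold, 2 with R1 alone, 16 with a level of at least 10, 18 with no filter, 4 at 1.5-fold and 2 centred with a level of at least 10. The median of -0.85 became -0.11 when centred, 0.03 when scaled to the sum, -1.0 with a level of at least 10, -0.99 with no filter, -0.26 centred with a level of at least 10 and -0.09 within GC bins. At 24 hr, the 0 higher became 2 with a level of at least 10, 3 with no filter and 3 within GC bins. The 0 lower became 1 with R1 alone, 5 with a level of at least 10, 7 with no filter, 2 at 1.5-fold, 6 centred with a level of at least 10 and 5 within GC bins. The median of -0.06 became -0.40 with a level of at least 10 and -0.50 centred with it. With peaks of at least 40-fold enrichment, 7 Hox genes had a peak at the start, and the covered shares became 31.3% in HoxA, 0% in HoxB, 3.37% in HoxC and 0% in HoxD. At a cutoff of 10, 33 genes counted as detected in untreated cells. The looser filters judged more genes, and the cause of the other shifts was not tested. Over the 7 genes of at least 100, 126 log2 ratios were recomputed, of which 74 moved by no more than the column difference and 52 by more. Of these, 6 changed sign, all of ratios under 2-fold and all by scaling. Hoxb9 at 1.5 hr went from 0.06 to -0.39 when centred and -0.21 when scaled to the sum, Hoxc8 at 6 hr from -0.27 to 0.47 and 0.61, and, when scaled to the sum, Hoxb9 and Hoxc6 at 6 hr from -0.85 and -0.86 to 0.03 and 0.02. Alternative rows of a symbol could be tried for starts through the annotated starts of the gene only, since the table gives no positions.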
